A study of Mus musculus with 2 samples.

Results

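The secreted Wnt antagonists described here are 9 genes, Wif1, Frzb, Sfrp1, Sfrp2, Sfrp4, Sfrp5, Dkk1, Dkk2 and Dkk3, out of 18193 genes named on the array. Their members were chosen by gene symbol, as every probe set to which the platform annotation gives that symbol and no other, which came to 17 probe sets. Signals were measured with Affymetrix mouse genome expression arrays on total RNA from 2 cultures of rib chondrocytes, the cells that make cartilage, both taken from mice aged 5 days and both carrying a strain label that names C57BL/6 and CBA. One culture came from miR-140 knockout mice and the other from wild-type mice, and each is represented by 1 array. How many animals or litters were pooled into a culture, and which part of the locus was deleted, is not stated in the sources used here. The arrays were made to look for messenger RNAs that the microRNA may repress. A single array per genotype allows no test, so the values below describe these arrays and have no replicate check.

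Wnt proteins are secreted signals that bind Frizzled receptors, with LRP5 or LRP6 as co-receptors, and in the canonical branch stabilise beta-catenin. Secreted antagonists limit this signal outside the cell in different ways. WIF1 and the secreted Frizzled-related proteins, of which FRZB is also known as SFRP3, bind Wnt ligands, whereas DKK1 and DKK2 bind the LRP co-receptors. DKK3 belongs to the same family by sequence but is not a typical LRP-binding antagonist. In the skeleton FRZB was purified from cartilage and WIF1 is made in cartilage, while the SFRP1, SFRP2 and SFRP4 genes are widely expressed in fibroblastic and mesenchymal cells. Wif1 and Frzb are called the cartilage-type antagonists below. The other 7 genes are called the fibroblast-type antagonists, a working name that for Sfrp5 and the Dkk genes says only that they are the remaining members.

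The microRNA named in the knockout label is shown first, because the groups are labelled by it. Mir140 lies at chr8:107551244-107551313 on the plus strand of GRCm38.p6, inside the gene Wwp2. The hairpin of 70 bases is given with its miR-140-3p arm in capitals, and the mature arm of 21 bases with its seed, bases 2 to 8, in capitals. Both sequences are from RefSeq.
Mir140 hairpin: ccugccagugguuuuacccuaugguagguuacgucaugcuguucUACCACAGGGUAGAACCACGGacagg
mmu-miR-140-3p: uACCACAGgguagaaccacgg
No transcript sequences were used here, so matches to the seed of either arm in the messenger RNAs of the antagonists were not searched.

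The stretch of 250 bases before the annotated start is shown for Wif1 and Frzb, the 2 members farthest below 0, and for Sfrp5, which was near equal in the arrays. They lie at chr10:121033754-121034003 on the plus strand, chr2:80447397-80447646 on the minus strand and chr19:42202253-42202502 on the minus strand of GRCm38.p6, and each reads towards the gene. Capitals mark matches to CTTTGA or CTTTGT, the core of the TCF/LEF motif through which beta-catenin acts, on either strand, and to AACAAT, a SOX motif, also on either strand.
Wif1 upstream: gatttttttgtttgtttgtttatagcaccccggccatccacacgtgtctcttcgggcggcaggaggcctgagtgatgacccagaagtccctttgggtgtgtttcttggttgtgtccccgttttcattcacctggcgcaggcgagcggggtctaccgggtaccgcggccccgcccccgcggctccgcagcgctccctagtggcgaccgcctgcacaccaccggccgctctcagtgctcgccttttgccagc
Frzb upstream: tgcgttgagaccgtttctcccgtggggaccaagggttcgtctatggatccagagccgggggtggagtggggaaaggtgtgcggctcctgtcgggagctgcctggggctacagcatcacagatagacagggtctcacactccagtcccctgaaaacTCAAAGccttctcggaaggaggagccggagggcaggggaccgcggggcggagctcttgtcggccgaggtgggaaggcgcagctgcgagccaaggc
Sfrp5 upstream: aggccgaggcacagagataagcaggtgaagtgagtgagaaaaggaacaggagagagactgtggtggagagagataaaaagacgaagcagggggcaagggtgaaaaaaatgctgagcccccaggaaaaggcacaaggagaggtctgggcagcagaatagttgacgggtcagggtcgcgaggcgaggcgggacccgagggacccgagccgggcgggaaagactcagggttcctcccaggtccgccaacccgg
Frzb has 1 TCF/LEF match, on the minus strand of the window, and Wif1 and Sfrp5 have 0. RefSeq's table holds such a window for 6 members. Of the others, Dkk1 has 3 TCF/LEF matches, Dkk2 has 1 and Sfrp2 has 0, and none of the 6 windows has the SOX motif. The windows of Sfrp2 and Dkk2 are not shown, because the start used for them lies inside the gene's annotated span, so all of the first and part of the second fall within the gene. Among 32851 windows of the same length the TCF/LEF motif is in 27.6% and the SOX motif in 9.42%. These matches describe letters only.

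Signals are log2 values, so a difference of 1 is a 2-fold difference, and every difference is knockout minus wild type. The knockout array spanned 3.28 to 14.08 with a median of 6.30 and the wild-type array 3.24 to 14.20 with a median of 6.29. A gene was compared where the higher of its values was at least 7, which held for 9897 genes, and the central 95% of their differences lay between -0.69 and 0.47 with a median of -0.05. The Mir140 host gene Wwp2 read 7.13 in the knockout and 9.65 in the wild type, and no probe set measures mature miR-140. Transcripts of the sex chromosomes also differed between the arrays: Xist, which coats the silenced X, read 10.60 in the knockout and 7.01 in the wild type, and the Y-linked gene Eif2s3y read 4.18 in the knockout and 8.86 in the wild type. The sex of the mice is not in the labels, and the part of this difference in the results below was not tested.

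The cartilage-type antagonists had lower signal in the knockout culture, and most of the fibroblast-type antagonists that could be compared had somewhat higher signal. Of the 9 genes, 7 reached a signal of 7 in at least 1 array. Of these, 3 were lower in the knockout (Wif1, Frzb and Sfrp5) and 4 higher (Sfrp1, Sfrp2, Sfrp4 and Dkk3), where 59.2% of all compared genes were lower and 40% higher. Their median difference was 0.20, against -0.05 for all compared genes. A gene was read from its main probe set, the one brightest on average. At least 2-fold lower signal was found for 1 antagonist, Wif1, against 1.22% of all compared genes. No antagonist was at least 2-fold higher on its main probe set, against 0.475% of all compared genes. At 1.5-fold, 2 were lower (Wif1 and Frzb; 3.56% of all genes) and 1 was higher (Dkk3; 1.56% of all genes). With so few members these shares are a description.

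**Figure D1:**
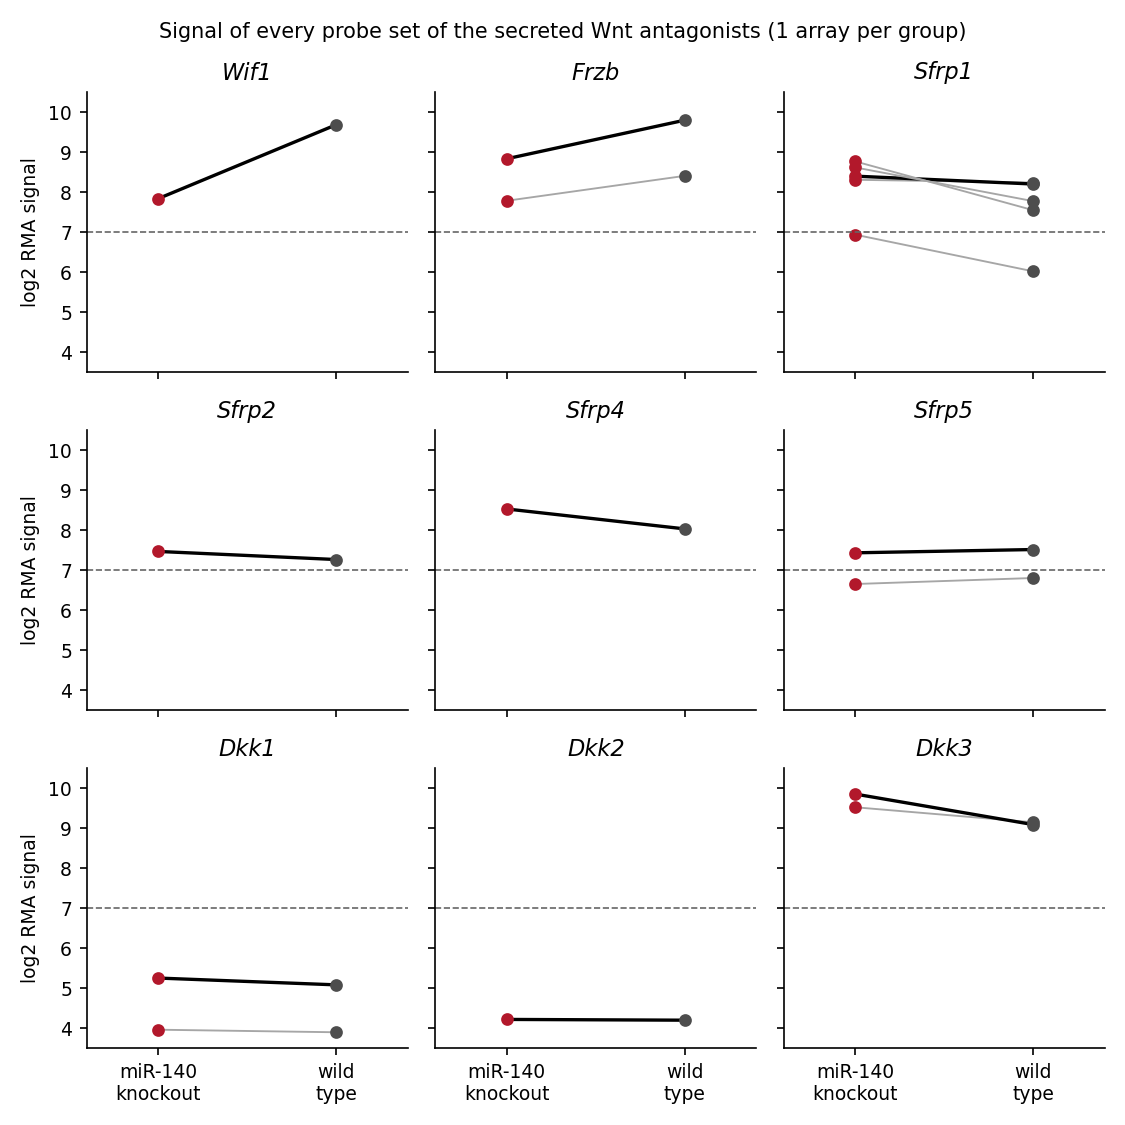
Log2 RMA signal (vertical axis) of every probe set of the 9 antagonists, with the miR-140 knockout array on the left of each panel and the wild-type array on the right. Lines join 1 probe set, black for the one used for the gene, and the dashed line is the signal of 7. Lines climb to the right for Wif1 and Frzb and descend for Sfrp1, Sfrp4 and Dkk3, while both probe sets of Dkk1 and the one of Dkk2 lie under the dashed line.

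Wif1 (Entrez 24117, chromosome 10), the Wnt inhibitory factor that captures Wnt ligands through its WIF domain, read 7.83 in the knockout and 9.68 in the wild type. The signal was thus above 7 in both arrays and lower in the knockout. The difference of -1.85 is 3.61-fold, and 31 of 9897 genes, Wif1 included, had a difference as low or lower (0.313%). Wif1 has 1 probe set, of a kind that can match several transcripts of the gene, so no other probe set checks it.

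Frzb (Entrez 20378, chromosome 2), a Frizzled-related protein with a cysteine-rich domain like that of the receptors, had 2 probe sets, and both were lower in the knockout. The brighter read 8.83 in the knockout and 9.80 in the wild type, a difference of -0.97 (1.95-fold). The other read 7.78 in the knockout and 8.40 in the wild type, a difference of -0.62 (1.54-fold). The brighter probe set thus stood just short of 2-fold, and 131 of the compared genes (1.32%) had a difference as low or lower.

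Sfrp1 (Entrez 20377, chromosome 8), a secreted Frizzled-related protein, had 5 probe sets that were all higher in the knockout, but by very different amounts. Its main probe set read 8.40 in the knockout and 8.20 in the wild type, a difference of 0.20. A second, similarly bright probe set is of a kind that can also match other transcripts. It read 8.31 in the knockout and 8.24 in the wild type, a difference of 0.07. Neither shows more than a small excess.

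The 3 Sfrp1 probe sets that the annotation ties to a single other sequence record differed more. One read 8.77 in the knockout and 7.54 in the wild type, a difference of 1.22 (2.33-fold). Another read 8.62 in the knockout and 7.77 in the wild type, a difference of 0.84 (1.80-fold). The third read 6.93 in the knockout and 6.02 in the wild type, under 7 in both arrays, with a difference of 0.92. These 3 probe sets averaged 0.995, against 0.13 for the pair described before, so the size of the Sfrp1 difference depends on which probe sets are read, while its direction did not. The span over the 4 Sfrp1 probe sets above 7 was 1.15. Of 321 genes with as many probe sets above 7, 12 (3.74%), Sfrp1 included, had a span as wide, and the median span was 0.42. The sources used here do not say which part of the transcript each probe set reads.

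Sfrp2 and Sfrp4 each had 1 probe set. Sfrp2 (Entrez 20319, chromosome 3) read 7.47 in the knockout and 7.26 in the wild type, a difference of 0.20 that 11.9% of compared genes reached or passed. Sfrp4 (Entrez 20379, chromosome 13) read 8.53 in the knockout and 8.03 in the wild type, a difference of 0.50 (1.41-fold) that 2.12% of genes reached or passed. Sfrp4 therefore lay beyond the central 95% of genes, and Sfrp2 lay well inside it.

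Sfrp5 (Entrez 54612, chromosome 19), the close relative of Sfrp1, was near equal in the arrays. Its brighter probe set read 7.43 in the knockout and 7.51 in the wild type, a difference of -0.08. The other read 6.65 in the knockout and 6.80 in the wild type, a difference of -0.15. Both probe sets lie close to 7, the signal under which differences are not read here.

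Among the Dickkopf genes, Dkk3 (Entrez 50781, chromosome 7) alone reached 7. Its main probe set read 9.85 in the knockout and 9.09 in the wild type. The other read 9.52 in the knockout and 9.15 in the wild type. Both were higher in the knockout, by 0.76 (1.70-fold) and 0.38 (1.30-fold), and 0.919% of compared genes reached or passed the first of these. Dkk1 and Dkk2, the LRP-binding members, stayed near background. Dkk1 (Entrez 13380, chromosome 19) read 5.25 in the knockout and 5.08 in the wild type, and its other probe set 3.96 in the knockout and 3.90 in the wild type. Dkk2 (Entrez 56811, chromosome 3) read 4.22 in the knockout and 4.20 in the wild type. No fold is given for either gene, and a signal this low does not show that the transcripts are absent.

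**Figure D2:**
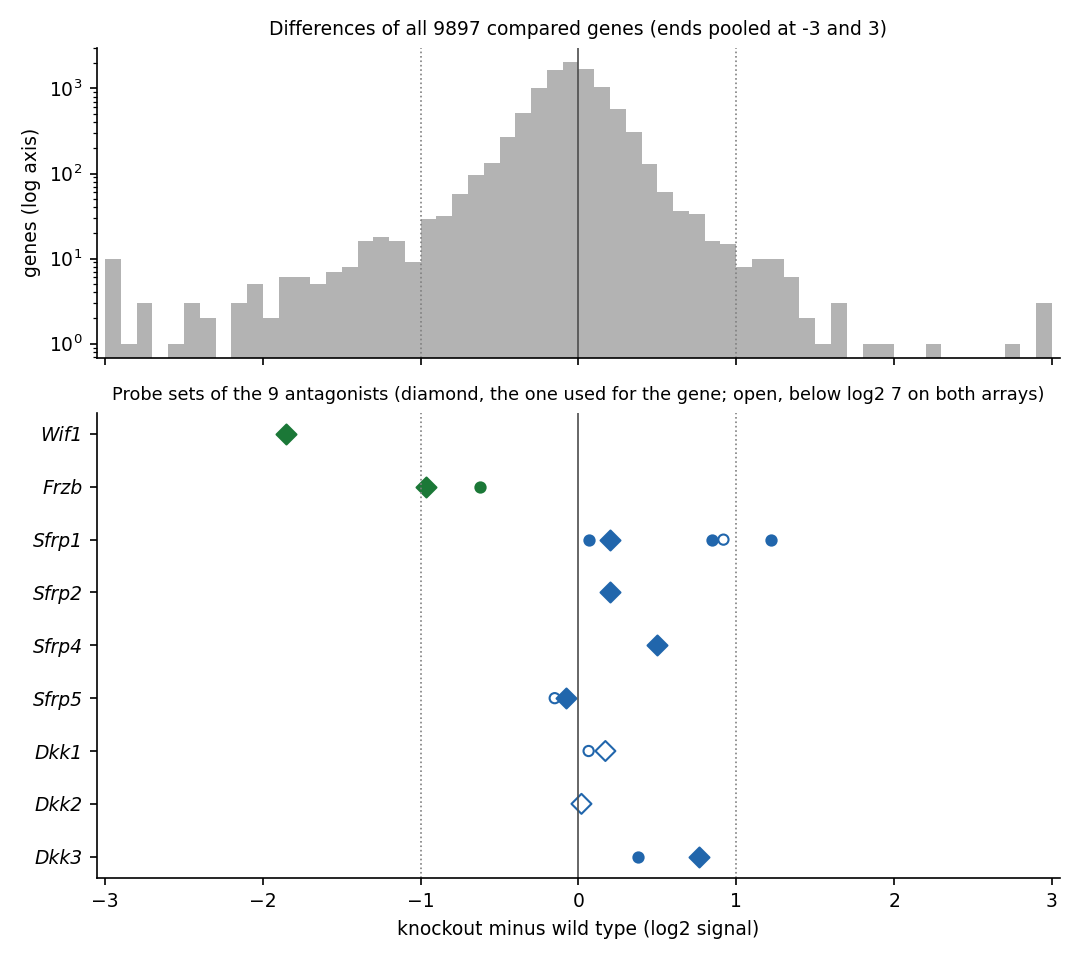
The upper panel is a histogram of the knockout minus wild-type difference of the 9897 compared genes (log2, horizontal axis; number of genes on a log vertical axis), and the lower panel shows each probe set of the 9 antagonists on the same horizontal axis. Green marks Wif1 and Frzb, blue the other genes, diamonds the probe set used for a gene, open symbols a signal under 7 in both arrays, and dotted lines 2-fold. Wif1 lies at -1.85 in the thin left tail, and the 5 Sfrp1 probe sets spread from 0.07 to 1.22.

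The contrast between both types can be given as a single value. Wif1 and Frzb had a mean difference of -1.41, and the 5 fibroblast-type antagonists above 7 had a median difference of 0.20, within a range from -0.08 to 0.76. The cartilage-type value minus the fibroblast-type value was -1.61 on the log2 scale, or 3.06-fold. Both cartilage-type genes lay below every fibroblast-type gene that reached 7. The types were named with earlier results of these arrays known, so this order is a description.

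**Figure D3:**
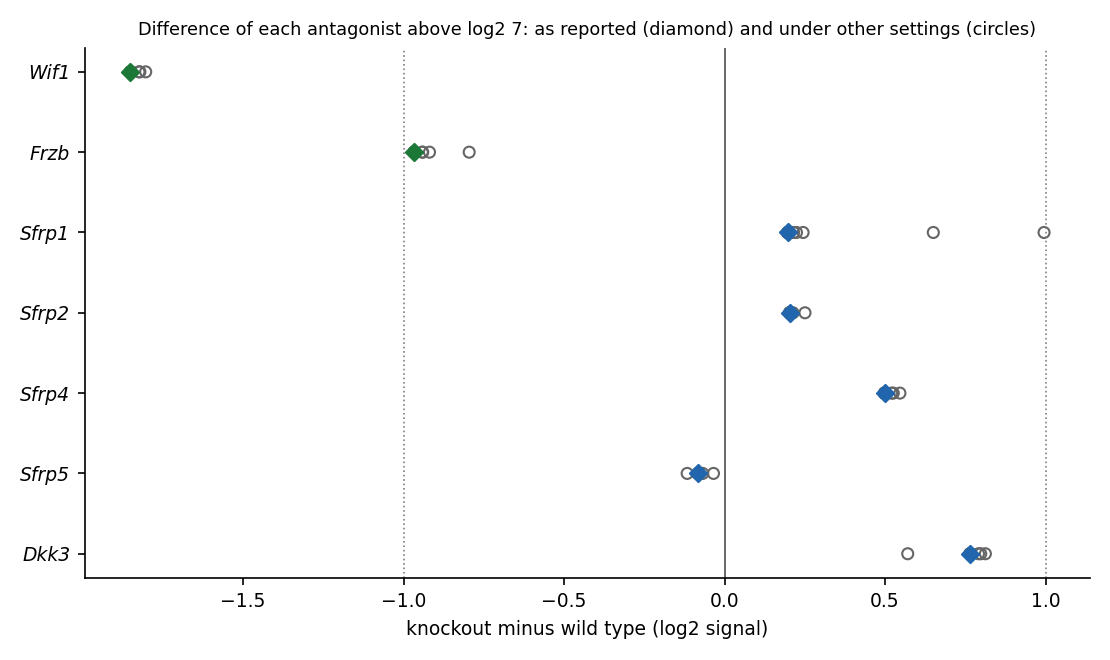
Knockout minus wild-type difference (log2, horizontal axis) of the 7 antagonists above a signal of 7, as reported (diamonds; green, Wif1 and Frzb; blue, the others) and under other processing settings (circles), with dotted lines at 2-fold. Wif1 and Frzb stay left of 0 and Dkk3, Sfrp4, Sfrp2 and Sfrp1 right of it, and Sfrp1 has the widest spread, from 0.20 to 0.995.

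Markers of the tissue also differed between the arrays. Of 11 cartilage markers, 10 were above 7 and all 10 were at least 2-fold lower in the knockout, with a median difference of -2.05, against -0.05 for all compared genes. The summed linear signal of all 11 was 14879.7 in the knockout and 57971 in the wild type. Acan, the core protein of aggrecan, differed by -4.03, the proteoglycan gene Snorc by -2.89 and the link protein gene Hapln1 by -2.45. Matn1, matrilin-1, was under 7 in both arrays, at 4.99 in the knockout and 6.12 in the wild type. Col2a1, the main collagen of cartilage and a defining marker of the labelled cell type, read 11.98 in the knockout and 13.98 in the wild type, far above 7 in both arrays.

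Of the fibroblast and perichondrium markers above 7, 8 of 11 were higher, with a median of 0.28, where 40% of all compared genes were higher and their median was -0.05, and the summed linear signal of all 12 listed was 54908 in the knockout and 50549.1 in the wild type. Col3a1, a fibrillar collagen of loose connective tissue, differed by 1.38, and the fibroblast protease gene Fap by 1.23. In the other direction Postn differed by -1.26, Fn1 by -0.41 and Dcn by -0.17. Thy1, a fibroblast surface marker, was under 7 in both arrays. Wif1 and Frzb thus differed by less than the cartilage median of -2.05. Sfrp4 (0.50) and Dkk3 (0.76) lay above the fibroblast median of 0.28, and Sfrp1 (0.20), Sfrp2 (0.20) and Sfrp5 (-0.08) lay below it. The place of Sfrp1 rests on the probe set read, because the mean of all its probe sets was 0.65, above that median. The part of these marker differences in the antagonist values was not tested. In RNA from a whole culture, fewer cells of a type and less RNA per cell cannot be told apart.

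Markers of bone, muscle, endothelial and blood cells were mostly near background, while some of smooth muscle and fat cells were not. Of the osteoblast markers Ibsp, Sp7 and Alpl none reached 7, and Bglap and Runx2 have no probe set of a single symbol. Of 5 skeletal muscle markers 1 reached 7 (Des), of 4 endothelial markers 1 (Kdr) and of 4 smooth muscle and pericyte markers 1 (Acta2). Acta2, which activated fibroblasts also express, read 11.39 in the knockout and 11.85 in the wild type, a difference of -0.46. Of 4 leukocyte markers 3 reached 7 (Cd68, Adgre1 and Csf1r), all between 6.9 and 7.3 in both arrays, with a median of -0.01. Of 4 adipocyte markers 3 reached 7, and their median difference was 0.51. Fabp4, a fatty acid binding protein, read 12.03 in the knockout and 11.53 in the wild type. Lpl, a lipase, read 9.83 in the knockout and 8.72 in the wild type, and Pparg 8.67 in the knockout and 8.85 in the wild type, while Adipoq, the most specific of them, was under 7 in both arrays.

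The listed other genes of the Wnt pathway above 7 all differed by less than Wif1 did. Of 19 Wnt ligand genes 3 reached 7, Wnt7a at 0.31, Wnt10a at 0.14 and Wnt7b at -0.11. None of the 3 was 1.5-fold different, and the other 16 stayed under 7 in both arrays. Wnt5a, a ligand of the non-canonical branch, stayed just under 7, at 6.89 in the knockout and 6.68 in the wild type.

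Receptors and co-receptors were lower for 11 of 14 genes above 7, with a median of -0.11, where 59.2% of all compared genes were lower. Some of these directions rest on the probe set read. Other probe sets above 7 were higher for Fzd1 (0.45), Fzd2 (up to 0.13) and Ryk (0.04), and that of Fzd4 stood at 0. Fzd9, a Frizzled receptor, read 7.72 in the knockout and 9.24 in the wild type, a difference of -1.52 that is the nearest to that of Wif1 among these receptors. Ror2, a receptor for Wnt5a, differed by -0.78 and Fzd6 by -0.62, though a further Fzd6 probe set differed by -0.02. The co-receptor gene Lrp6, whose product DKK1 binds, stood at -0.27 and Lrp5 stayed under 7.

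Other extracellular modulators were lower for 7 of 9 genes above 7, with a median of -0.16, beside the 59.2% of all compared genes that were lower. Rspo3, an R-spondin that enhances Wnt signalling, read 8.85 in the knockout and 9.62 in the wild type (-0.77), and Lgr4, a receptor of R-spondins, differed by -0.40. Of this list, the secreted antagonist genes Sost, Sostdc1 and Dkk4 were under 7 in both arrays, and so was Notum, a Wnt-inactivating enzyme. Other listed modulators were well above 7. Igfbp4 read 13.26 in the knockout and 13.23 in the wild type (0.04), though its 6 probe sets ran from -0.16 to 0.79. Apcdd1 read 9.51 in the knockout and 9.67 in the wild type (-0.16), though its 4 probe sets above 7 ran from -0.16 to 0.24. Trabd2b read 8.40 in the knockout and 8.75 in the wild type (-0.35). Intracellular components were lower for 11 of 14 genes, with a median of -0.17, beside the same 59.2%. Gsk3a, a kinase that marks beta-catenin for destruction, differed by -0.32 and the TCF factor Tcf7l1 by -0.28, and none reached 1.5-fold. For some of these components the sign rests on the probe set read. Among the lower genes, probe sets above 7 ran from -0.23 to 0.35 for Ctnnb1 and from -0.51 to 0.13 for Gsk3b. Those of Csnk1a1 ran from -0.34 to 0.04. Among the higher genes, those of Dvl1 ran from -0.14 to 0.26 and those of Btrc from -0.48 to 0.06.

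Genes known in other settings as targets of beta-catenin showed no common direction. Of 11 above 7, 6 were lower and 5 higher, with a median of -0.05, close to that of all compared genes (-0.05). Axin2, a feedback inhibitor often read as a measure of canonical signalling, was 8.03 in the knockout and 7.99 in the wild type, a difference of 0.04. Tnfrsf11b, osteoprotegerin, read 10.48 in the knockout and 11.83 in the wild type, a difference of -1.35, with its other probe set at -0.70. Gja1, the gap junction protein connexin 43, stood at 0.60 by the probe set used, but its 6 probe sets ran from -0.41 to 1.56, so its place among the 5 higher genes rests on the probe set read.

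**Figure D4:**
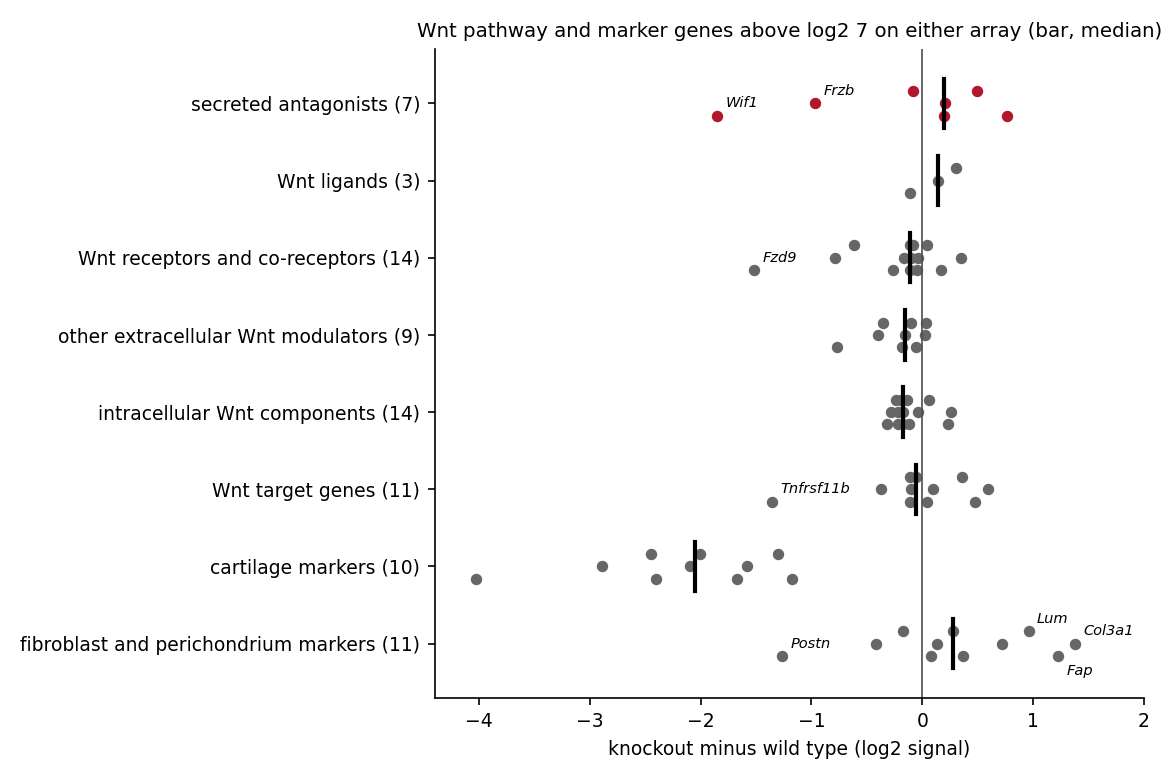
Knockout minus wild-type difference (log2, horizontal axis) of each gene above a signal of 7 in the secreted antagonists (red), the Wnt pathway lists by role, and the cartilage and fibroblast marker lists (grey), with the number of genes in brackets and the median as a bar. Wif1 at -1.85 and Fzd9 at -1.52 stand left of most Wnt pathway genes, in the range of the cartilage markers, whose median is -2.05.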

How the data were processed

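The deposited values are log2 signals that the authors made with RMA, per the series' design text, in Affymetrix Expression Console 1.1, per the submitters' processing notes. RMA subtracts background, equalises the distributions of arrays and combines the probes of each set, so it compresses differences of dim probe sets and removes a difference shared by most genes. The log2 scale was read from the values. The sources used here do not name the arrays that were normalized together. Arrays have no read depth, and their number, 1 per group, limits the precision.

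Of 45101 probe sets, 64 are controls, 34945 had a single gene symbol in the platform annotation, 932 several and 9160 none. Symbols were updated by Entrez identifier to a RefSeq table of GRCm38.p6, which held 34741 of the single-symbol probe sets. The probe set that was brightest on average stood for a gene (its main probe set), and a gene was compared if the higher log2 value was at least 7. Differences were computed in Python 3.11.15 with pandas 2.3.3. The code was tested on simulated data, with differences planted in bright genes and recovery required only for the largest. That test does not show how well small differences, or those of dim genes, are read. No p-value is given.

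All 9 members were named, as were the 2 farthest or all 1.5-fold different genes of each of 5 Wnt lists, up to 3 of the farthest genes of each marker list with defining markers under the floor, and the 3 genes nearest in difference to each 1.5-fold different member. Genes outside that rule (Wnt5a, Wnt7b, Lrp5, Lrp6, Sost, Sostdc1, Dkk4, Notum, Axin2, Col2a1, Fn1, Dcn) were added after their values were seen. So were Igfbp4, Apcdd1 and Trabd2b. The same holds for Fzd1, Fzd2, Fzd4, Ryk, Ctnnb1, Gsk3b, Csnk1a1, Dvl1 and Btrc, named for the spread of their probe sets. Members and lists were chosen with earlier results of these data known. The settings tried were centring on the median or on a lowess curve (span 0.2), quantile normalization of the deposited values, no floor or a floor of 6 or 8, the mean of all probe sets, probe sets of 1 transcript, low values raised to 7 and a 1.5-fold threshold. The mean of the fibroblast-type members was also tried in place of their median. Reading Sfrp1 from 3 other probe sets was chosen after seeing the data. RefSeq held upstream sequences for 6 members, not for Sfrp1, Sfrp4 and Dkk3.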

Additional observations from a re-analysis of the deposited data

How the results depend on the processing

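Directions of the 7 antagonists above the floor were the same under every alternative that gave a value, but several alternatives could not change them. The main probe set of each lay above 7 in both arrays. Other floors and raised low values therefore left each difference as it was or gave none. The mean of all probe sets could not move Wif1, Sfrp2 or Sfrp4, which have 1 probe set each. The difference of Wif1 ran from -1.85 to -1.80 over 8 alternatives and that of Frzb from -0.97 to -0.80 over 9. Dkk3 ran from 0.57 to 0.81 over 9 alternatives, and Sfrp4 from 0.50 to 0.55 over 9. Sfrp1 ran from 0.20 to 0.995 over 10, with 0.65 for the mean of all its probe sets and 0.995 for the 3 probe sets of a single record, a setting chosen after seeing the data. The cartilage-type minus fibroblast-type difference was -1.61, and it moved to -1.91 with a floor of 8, which leaves Sfrp2 and Sfrp5 out, and to -1.91 with Sfrp1 read from those 3 probe sets. The same difference was -1.82 with the mean of all probe sets and -1.73 with the mean of the fibroblast-type members. Centring on the median shifts every gene alike and could not change it. With probe sets of 1 transcript Wif1 has none left, so 0 antagonists were 2-fold lower and that difference could not be computed. With a 1.5-fold threshold 2 were lower and 1 was higher. No paired analysis was possible because each group has 1 array. Low signal limits Dkk1 and Dkk2, which were near background in both arrays, and Sfrp2 and Sfrp5, which lay just above the floor of 7.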

Other observations

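The other genes whose difference was nearest to that of an antagonist, predicted and clone symbols left out, are given as values. For Wif1 they were Bdh1, an enzyme of ketone body metabolism (-1.85), F13a1, the A chain of coagulation factor XIII (-1.82), and Smoc2, a secreted matrix protein (-1.82). The knockout signals of Bdh1 (6.25) and F13a1 (5.43) were under 7, so those differences involve values near background. For Frzb they were Paqr3 (-0.97), Klhl21 (-0.97) and Cyb5r2 (-0.98), all above 7 in both arrays. For Dkk3 they were Ccbe1 (0.77), Nt5dc2 (0.77) and B3galnt1 (0.76), of which Ccbe1 read 6.52 in the wild type. With 2 arrays such likeness rests on a single difference per gene.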
